A study of Mus musculus with 2 samples.

Results

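Interleukins, their receptors and related growth factors were examined in colon from control mice and from mice that had lost the prostaglandin E2 receptor EP4 in the intestinal epithelium. The genes were chosen by name: every gene whose symbol is Il followed by a digit, apart from Il1b, Il18, Il25 and Il10rb, together with the thymic stromal lymphopoietin gene Tslp, its receptor Crlf2, Lif, Lifr, Osm, Osmr, Csf1, Csf2, Csf3 and Csf1r. This gave 135 probes for 88 genes, out of 56593 probes and 22909 named genes on the array. The rule used symbols and no signal.

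The comparison was between 2 one-colour Agilent arrays, 1 for each genotype, both of colon from C57BL/6 mice. The control group carried Villin-Cre, in which the villin promoter drives Cre recombinase in intestinal epithelial cells, and the knockout group was Villin-Cre; EP4flox/flox, called EP4 cKO. Both groups therefore carried Cre, and according to the methods the mice were 8 weeks old and whole colon was used, so stromal, muscle and immune cells with an intact EP4 gene were part of the sample. Each array received RNA combined from 3 pools of tissue, which leaves 1 measurement per genotype, no spread between animals and no test of any difference below.

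The probes of the knocked-out gene Ptger4, which encodes EP4, were within 2-fold and opposite in sign on the array labelled EP4 cKO. The brighter probe gave a normalized signal of 6227 in Villin-Cre and 5661 in EP4 cKO, a log2 ratio of -0.14. Its dimmer probe gave 393 and 592, or 0.59 on that scale. The position of these probes relative to the deleted part of the gene was not determined, and other cells of the colon kept the gene, so neither probe checks the label. Of the markers of colon, 7 of 7 epithelial genes were well above background on both arrays, but of 6 fibroblast genes only Dcn and Col1a2 were so on EP4 cKO. In RNA of whole tissue, fewer cells of a type and less RNA per cell cannot be told apart.

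Interleukins are secreted signals that bind receptor chains on the cell surface, and most receptors are pairs of a private chain and a chain shared with other cytokines. Receptors of the IL-1 and IL-17 families signal through adaptor proteins to NF-kB, whereas most other chains below signal through JAK kinases and STAT transcription factors. In the colon these signals connect the epithelium with lymphocytes, myeloid cells and stroma, and soluble antagonists and decoy receptors limit them.

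Of the 88 genes, 51 had at least 1 probe well above background, the scanner software's own call, and 37 had none on either array. By role, 33 of 42 receptor genes had a value, as did 14 of 40 ligand genes and 3 of 4 genes for antagonists or binding proteins. EP4 cKO was more than 2-fold higher for 5 genes, Il18bp, Il4ra, Crlf2, Il31ra and Il2rb, and more than 2-fold lower for 6, Lifr, Il1f6, Il33, Il17rd, Il4i1 and Il24. Of the remaining 40 genes, 26 were measured on both arrays and lay within 2-fold, and 14 were detected on EP4 cKO only, with a bound that did not reach 2-fold and a ratio that may.

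These shares can be read against the whole array. The higher genes were 9.80% of the 51 with a value, against 4.88% of all 14679 genes with a value, and the lower genes were 11.8%, against 7.98%. The median log2 ratio of the 51 genes was 0.00, against -0.10 for all genes, and that of the 34 genes measured on both arrays was -0.30, against -0.15. The first of these medians takes bounds as values, with 5 of the 51 genes entered as 0 because their bound gave no direction. Throughout, each gene stands for its brightest probe, and signals are in units in which the trimmed mean of each array is 2500.

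More of the interleukin probes were detected on EP4 cKO alone than on Villin-Cre alone. Of 67 detected probes, 45 passed on both arrays, 19 passed on EP4 cKO only and 3 on Villin-Cre only. The EP4 cKO share of 28.4% compares with 14.7% of all probes, and the Villin-Cre share of 4.48% with 3.15%. The detection limit was higher on the control array after scaling, where the lowest signal called well above background was 125, against 57.8 on the EP4 cKO array. A probe dim on 1 array has only a bound, which is its bright signal over the larger of its own dim signal and that floor, written below as "at least". For Il1a, Il10ra, Il12rb2, Il11 and Il21, all detected on EP4 cKO only, the bound did not exceed 1, so no direction can be given.

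**Figure D1:**
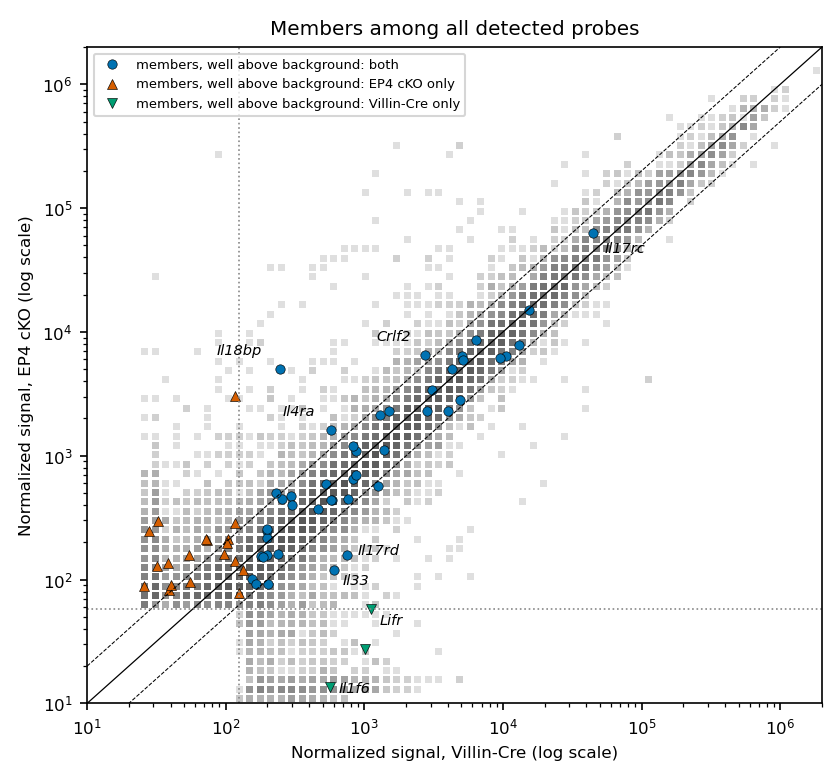
Normalized signal of each probe in Villin-Cre (x axis, log scale) and EP4 cKO (y axis, log scale), with coloured points for the 67 detected interleukin probes and grey squares for bins of all detected probes, darker where a bin holds more. The solid line marks equal signal, the dashed lines 2-fold, and the dotted lines the lowest signals called well above background, 125 and 57.8; Il18bp stands far above the diagonal and Lifr, Il1f6, Il33 and Il17rd far below it.

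The largest ratio measured on both arrays among these genes was that of Il18bp, which encodes the secreted protein that binds IL-18 and keeps it from its receptor. Its brighter probe read 247 in Villin-Cre and 5051 in EP4 cKO, 20.5-fold higher, a log2 ratio of 4.36 with an error of 0.26 by the scanner's error model. The dimmer probe read 116, not well above background, and 3030, at least 24.2-fold higher. Both probes thus placed Il18bp far above the control. Another IL-1 family antagonist, Il1rn, which encodes the IL-1 receptor antagonist, read 6340 and 8597, a log2 ratio of 0.44, and 297 and 473 on its other probe, a log2 ratio of 0.67, both within 2-fold. The 2 chains of the IL-18 receptor, Il18r1 and Il18rap, were undetected on both arrays.

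Of the 3 IL-1 family ligands with a value, 2 were more than 2-fold lower, Il33 and Il1f6. Il33 encodes an alarmin held in the nucleus of epithelial and stromal cells and released on damage. It read 608 in Villin-Cre and 120 in EP4 cKO, 5.07-fold lower, a log2 ratio of -2.34 with an error of 0.27, and its other probe read 147 and 13.6, well above background on neither array. Il1f6, the gene of IL-36 alpha, read 568 in Villin-Cre and 13.5 in EP4 cKO, where it was not well above background, at least 9.82-fold lower. Its other probe was detected on neither array. Il1f6 was therefore detected in the control alone.

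No receptor chain of the IL-1 family was shown to pass 2-fold. Il1r1, the signalling receptor for IL-1, read 761 and 450, a log2 ratio of -0.76, and its partner chain Il1rap read 823 and 648, a log2 ratio of -0.35. The decoy receptor Il1r2 read 54.1 and 159, at least 1.27-fold higher, and Il1rl1, the receptor for IL-33, read 31.9 and 128, at least 1.02-fold higher. Both were detected on EP4 cKO only. The IL-36 ligands Il1f8 and Il1f9, the IL-36 receptor antagonist Il1f5, the IL-36 receptor Il1rl2, and Il1f10, Il1rapl1 and Il1rapl2 were detected on neither array.

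In the IL-6 family, Lifr was detected in the control alone. It encodes the receptor chain that pairs with gp130, the product of Il6st, to bind LIF. In Villin-Cre the brightest of its 3 probes read 1115 and in EP4 cKO 57.6, at least 19.3-fold lower. The second probe read 1010 and 27.7, at least 17.5-fold lower, and the third, detected on neither array, 118 and 13.4. Neither bright probe was well above background in EP4 cKO, although 57.6 lies just under the floor. By contrast Il6st itself read 571 and 441, a log2 ratio of -0.37, Il6ra, the IL-6 receptor, read 4027 and 2301, a log2 ratio of -0.81, and Il11ra1, the IL-11 receptor, read 10536 and 6444, a log2 ratio of -0.71. A near-identical copy, Il11ra2, has no probe of its own, so the Il11ra1 signal may include it. The dimmer probe of Il6ra gave a log2 ratio of -0.22.

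Both chains of the IL-31 receptor were detected on EP4 cKO only, as were 14.7% of all detected probes. Il31ra, the private chain of the receptor, read 32.7 in Villin-Cre and 295 in EP4 cKO, at least 2.35-fold higher, though 0.88 on the log2 scale with background correction and quantiles. Osmr, which pairs with it and also with gp130 for oncostatin M, read 28.1 and 247, at least 1.97-fold higher, a bound just short of 2-fold. The other probe of each was detected on neither array. The ligands Il31 and Osm were not detected, nor was Il6, while Lif read 156 and 101, a log2 ratio of -0.62 with an error of 0.36.

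**Figure D2:**
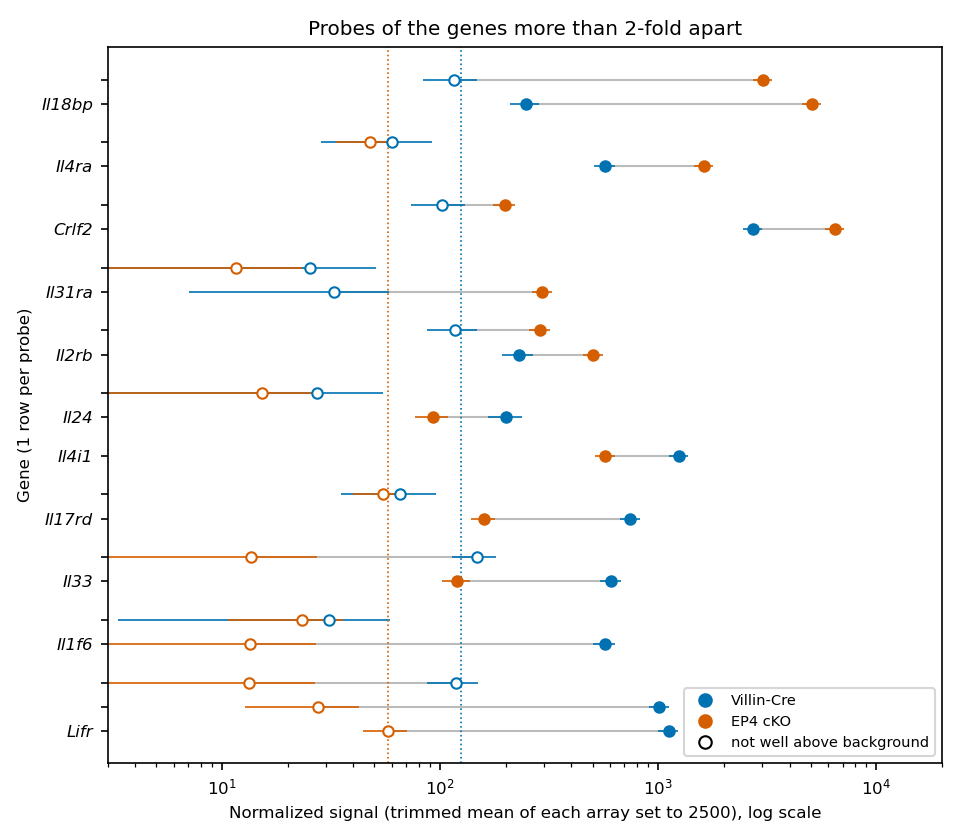
Normalized signal (x axis, log scale) of every probe of the 11 genes more than 2-fold apart, 1 row per probe, in Villin-Cre (blue) and EP4 cKO (orange), open where not well above background, with bars for the scanner's error estimate, cut at the axis edge, and dotted lines for the lowest detected signals of 125 and 57.8. Il18bp is far higher in EP4 cKO on both of its probes, and both bright Lifr probes are not well above background there.

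Markers of fibroblasts were lower too, as Lifr, Il1f6, Il33, Il17rd, Il4i1 and Il24 were. Of 6 fibroblast genes, 5 had a value and all 5 were more than 2-fold lower in EP4 cKO, with a median log2 ratio of -4.81, and Pdgfra was detected on neither array. Their summed signal was 13068 in Villin-Cre and 289.5 in EP4 cKO. Dcn, the gene of the matrix protein decorin, read 6006 and 110, 54.5-fold lower, and the collagen genes Col1a2, Col3a1 and Col1a1 were 32.6-fold, at least 28.0-fold and at least 22.7-fold lower. Of 4 smooth muscle genes with a value, 1 was more than 2-fold lower, Cnn1, and the summed signal was 25824 and 39972, most of it from Acta2 and Actg2. The part of these cells in the lower Lifr, Il1f6, Il33, Il17rd, Il4i1 and Il24 signals was not tested.

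Receptors that use the common gamma chain, and the related TSLP receptor, held 3 of the 5 higher genes. This group had 9 receptor genes, of which 7 had a value. Of all genes with a value, 4.88% were more than 2-fold higher. Il4ra, the chain shared by the IL-4 and IL-13 receptors, read 571 in Villin-Cre and 1615 in EP4 cKO, 2.83-fold higher with an error of 0.22 on the log2 scale. Its other probe was detected on neither array. Crlf2, the receptor for the epithelial cytokine TSLP, read 2720 and 6469, 2.38-fold higher, and its dimmer probe 102 and 198, at least 1.58-fold higher. Il2rb, the chain shared by the IL-2 and IL-15 receptors, read 230 and 504, 2.20-fold higher. Its other probe read 117 and 288, at least 2.30-fold higher. With background correction and quantiles the log2 ratio of Il2rb was 0.93, within 2-fold. With the mean of all its probes that of Crlf2 was 0.96, also within 2-fold. For Il18bp, Crlf2 and Il2rb the control signal of the dimmer probe was not well above background.

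The partner chains and ligands were not shown to pass 2-fold. Il2rg, the common gamma chain, read 828 and 1205, a log2 ratio of 0.54, and Il7r, which pairs with it and with Crlf2, read 117 and 141, at least 1.13-fold higher. Il21r, the IL-21 receptor, gave a log2 ratio of -0.28, with signals of 185 and 152. Il15 and its presenting receptor Il15ra were bright and lower within 2-fold, with Il15 at 9468 and 6180, a log2 ratio of -0.62, and Il15ra at 13052 and 7827, a log2 ratio of -0.74. The dimmer Il15 probe gave -0.30, and the dimmer Il15ra probes gave -0.57 and 0.38, so the probes of Il15ra did not share a sign. Il7, a lymphocyte survival factor, read 303 and 398, a log2 ratio of 0.40. Il2, Il4, Il9, Tslp, Il2ra and Il9r were detected on neither array, so the ligands of the higher receptors Il4ra and Crlf2 gave no measurable signal.

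None of the ligands Il3, Il5, Il13 and Csf2 was detected, but all 4 receptor genes of that group were. Il13ra1, which joins Il4ra to form the receptor for IL-13, read 15526 and 15045, a log2 ratio of -0.05. Il13ra2, the decoy receptor for IL-13, read 872 and 1102, a log2 ratio of 0.34. Il3ra read 1514 and 2282, a log2 ratio of 0.59, with 0.13 on its dimmer probe, and Il5ra, the eosinophil receptor for IL-5, read 103 and 214, at least 1.71-fold higher.

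Markers of T cells and mast cells, which carry several of these receptors, were read alongside. Of 7 T cell genes, all with a value, 1 was more than 2-fold higher, Cd3g, and the log2 ratios ranged from -0.79 to 1.28. Their summed signal was 13169 in Villin-Cre and 13830 in EP4 cKO, of which Cd4 alone gave 6749 and 7641. All 6 mast cell genes had a value and 4 were more than 2-fold higher, with summed signals of 3666 and 15408. The mast cell protease genes Mcpt1, Mcpt2 and Cpa3 were detected on EP4 cKO only, at least 78.95-fold, 11.3-fold and 4.49-fold higher, whereas the list also held Kit, whose log2 ratio was -0.71. The part of either cell type in the receptor signals was not tested.

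**Figure D3:**
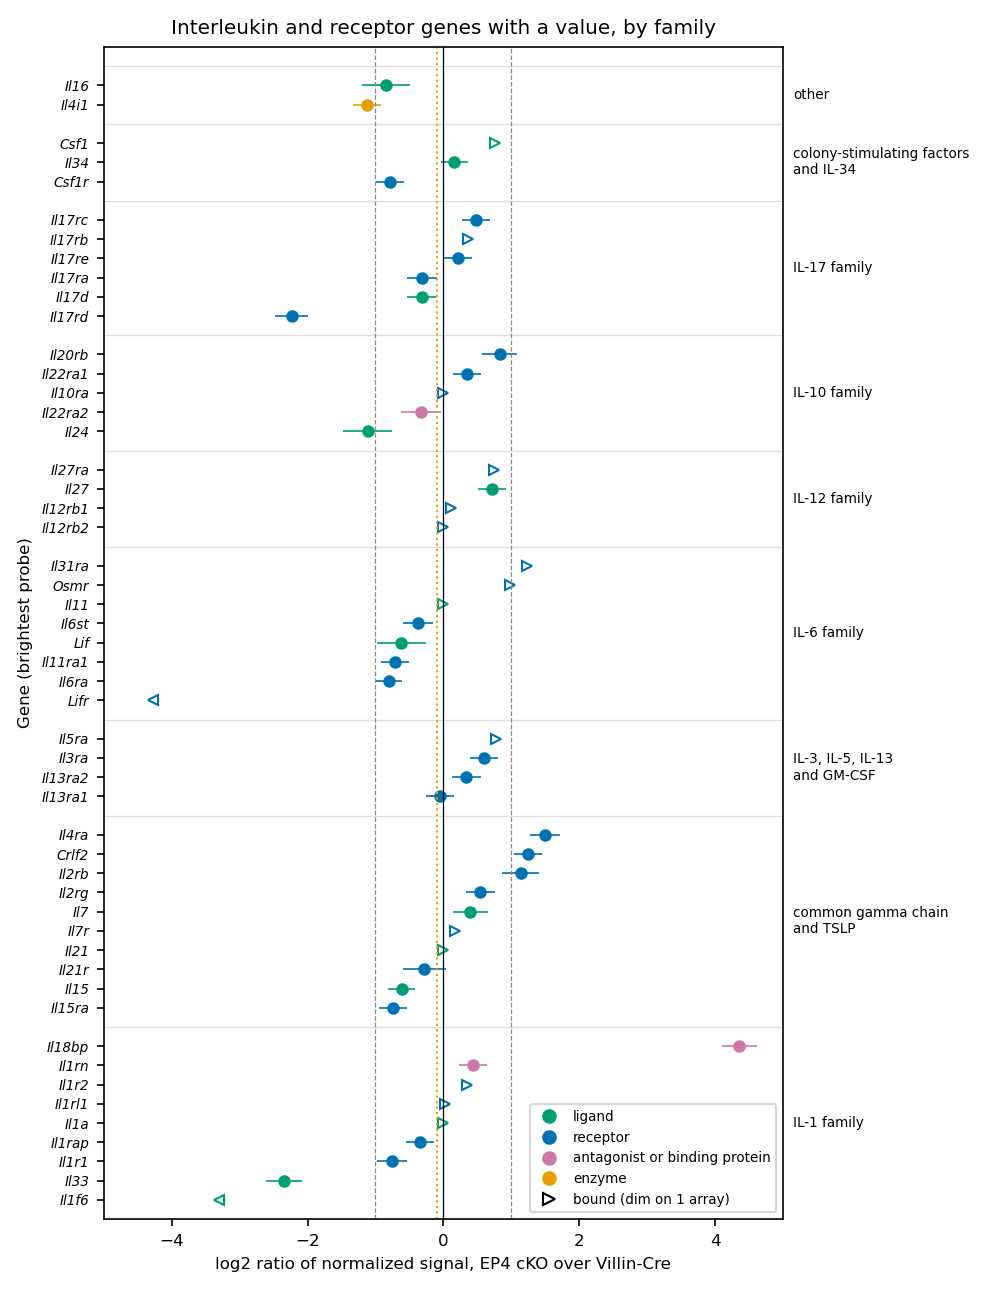
Log2 ratio of EP4 cKO over Villin-Cre (x axis) for the brightest probe of each of the 51 genes with a value, grouped by family and coloured by role, with bars for the scanner's error and open triangles for bounds. Dashed lines mark 2-fold and the dotted line the median of all genes, -0.10; the 3 genes beyond 2-fold among the common gamma chain and TSLP receptors all lie on the higher side.

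In the IL-17 family all 5 receptor genes had a value and 1 was past 2-fold. Il17rd, a receptor-like member that also restrains fibroblast growth factor signalling, read 746 in Villin-Cre and 159 in EP4 cKO, 4.70-fold lower, a log2 ratio of -2.23 with an error of 0.24. Its other probe was detected on neither array. The chains that bind IL-17A and IL-17F differed little: Il17ra read 460 and 370, a log2 ratio of -0.32, and Il17rc read 44711 and 62475, a log2 ratio of 0.48, with -0.40 on its dimmer probe. Il17re, which with Il17ra binds the epithelial cytokine IL-17C, gave 0.21 and 0.22 on its 2 probes, and Il17rb, the receptor for IL-25, was at least 1.29-fold higher on 1 probe, while its other probe, detected on neither array, read 151 and 14.5. Of the ligands only Il17d was detected, at 871 and 696, a log2 ratio of -0.32, and Il17a, Il17b, Il17c and Il17f were not.

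The IL-10 family held 1 gene past 2-fold, Il24, a ligand that acts on epithelial cells. It read 201 and 92.8, 2.16-fold lower, a log2 ratio of -1.11 with an error of 0.36. That error was the widest among the probes measured on both arrays. Under each other scaling described below, Il24 came within 2-fold, at log2 ratios from -0.96 to -0.08. Its receptor chain Il20rb read 254 and 451, a log2 ratio of 0.83, and Il22ra1, the epithelial receptor chain for IL-22, read 5035 and 6405, a log2 ratio of 0.35, with 0.30 on its dimmer probe. Il22ra2, the soluble protein that binds IL-22, read 198 and 158, a log2 ratio of -0.33. Il10, Il19, Il20, Il22 and Il20ra were detected on neither array.

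No gene of the IL-12 family was shown to pass 2-fold. Il27, a subunit of the cytokine IL-27, was the detected ligand gene, at 1289 and 2122, a log2 ratio of 0.72, and its receptor Il27ra read 73.7 and 209, at least 1.67-fold higher. Il12rb1, shared by the IL-12 and IL-23 receptors, was at least 1.08-fold higher. Il12a, Il12b, Il23a and Il23r were not detected.

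No growth factor of macrophages or its receptor was shown to pass 2-fold. Csf1 read 72.6 and 213, at least 1.70-fold higher, while its receptor Csf1r read 4874 and 2817, a log2 ratio of -0.79, with -0.34 on its dimmer probe. Il34, the other ligand of that receptor, gave 0.16 and 0.15 on its 2 probes. Csf3 was not detected. Of 7 macrophage markers 5 had a value and 1 was more than 2-fold higher, Mrc1, with a median log2 ratio of 0.33. Mrc1 was detected on EP4 cKO only, at 90.6 and 540, at least 4.31-fold higher. Adgre1 and Lyz2 were detected on neither array. The summed signal of the 5 markers with a value was 9354 in Villin-Cre and 16981 in EP4 cKO, of which Cd14 alone gave 8483 and 15583. Il16, a chemoattractant, read 165 and 91.7, a log2 ratio of -0.85 with an error of 0.36. Its dimmer probe read 132 and 118, well above background on EP4 cKO only, and gave no direction. The log2 ratio of Il16 was -0.22 with background correction and quantiles, and -0.42 with the mean of all its probes. Il4i1, which despite its name encodes an amino acid oxidase, read 1247 and 573, 2.18-fold lower, and a near-identical copy, Il4i1b, has no probe of its own. Its ratio also came within 2-fold under each other scaling described below, from -0.97 to -0.08 on the log2 scale. The antisense RNA Il1bos was detected on neither array.

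Most genes with several measured probes gave the same sign. Over the 10 genes with 2 or more probes measured on both arrays, 2 had probes of opposite sign, Il15ra and Il17rc. Dim probes well above background on both arrays had lower ratios, in a set whose lower limit was 125 in Villin-Cre and 57.8 in EP4 cKO and which leaves out probes detected on 1 array only. When these probes were split into 10 equal bins by signal, the median log2 ratio was -0.55 in the dimmest bin, with mean signals up to 207. It was -0.04 in the ninth bin and -0.10 in the brightest. Il24, Il16, Lif, Il21r and Il22ra2 lie in the signal range of the dimmest bin. The scanner's error on the log2 ratio was 0.20 to 0.36, with a median of 0.22, over the 45 member probes measured on both arrays. It covers the measurement of 1 array and not the spread between mice.

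Downstream of these receptors, 3 of 21 JAK, STAT, SOCS and adaptor genes exceeded 2-fold in EP4 cKO and none lay below the opposite limit, with a median log2 ratio of 0.00. Stat2, a transcription factor of interferon signalling, read 2877 and 10562, 3.67-fold higher. The feedback inhibitors Socs1 and Socs3 were 4.99-fold and 3.23-fold higher. The other genes of the list that were measured on both arrays lay within 2-fold, and 1 was detected on EP4 cKO only, with no direction, and entered the median as 0.

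Genes known to be induced by IL-4 or IL-13 were read next, from a list chosen with earlier results of these data known, and Il4 and Il13 themselves were not detected. Of 10 genes, 5 had a value, 4 of them more than 2-fold higher and 1 lower. Chil3, Arg1, Ccl11, Ccl24 and Pdcd1lg2, also on the list, were detected on neither array. Retnlb, the goblet cell protein RELM beta, read 95.9 in Villin-Cre, not well above background, and 275441 in EP4 cKO, at least 2197-fold higher. Ang4, an antimicrobial ribonuclease, read 1266 and 197441, 156-fold higher, and Itln1, an intestinal lectin, read 1238 and 17181, 13.9-fold higher. Ang4 and Itln1 have close relatives in the mouse that their probes could also bind. Retnla, a related secreted protein of macrophages and other cells, ran the other way, at 1014 and 347, 2.92-fold lower. The list's median log2 ratio was 3.79.

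Genes induced by IL-22 and IL-17 were read in the same way. Of 9 IL-22 induced genes 7 had a value, and 3 exceeded 2-fold in EP4 cKO and none in Villin-Cre, with a median of 0.64. Socs3, already counted among the signalling genes above, was 1 of these 3. Reg3a and Reg3b were detected on neither array. Lbp, which binds bacterial lipopolysaccharide, read 102 and 1012, at least 8.07-fold higher, and the antimicrobial lectin Reg3g read 31.2 and 520, at least 4.15-fold higher. Of 11 IL-17 induced genes 9 had a value, and 5 exceeded 2-fold in EP4 cKO and none in Villin-Cre, with a median of 1.25. Duoxa2, a maturation factor of an epithelial oxidase, read 616 and 6197, 10.1-fold higher, and Lcn2 and S100a8, antimicrobial proteins of neutrophils and epithelium, were at least 2.84-fold and 2.83-fold higher. These lists overlap with targets of interferon and of bacterial products, so they do not assign a gene to 1 cytokine.

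**Figure D4:**
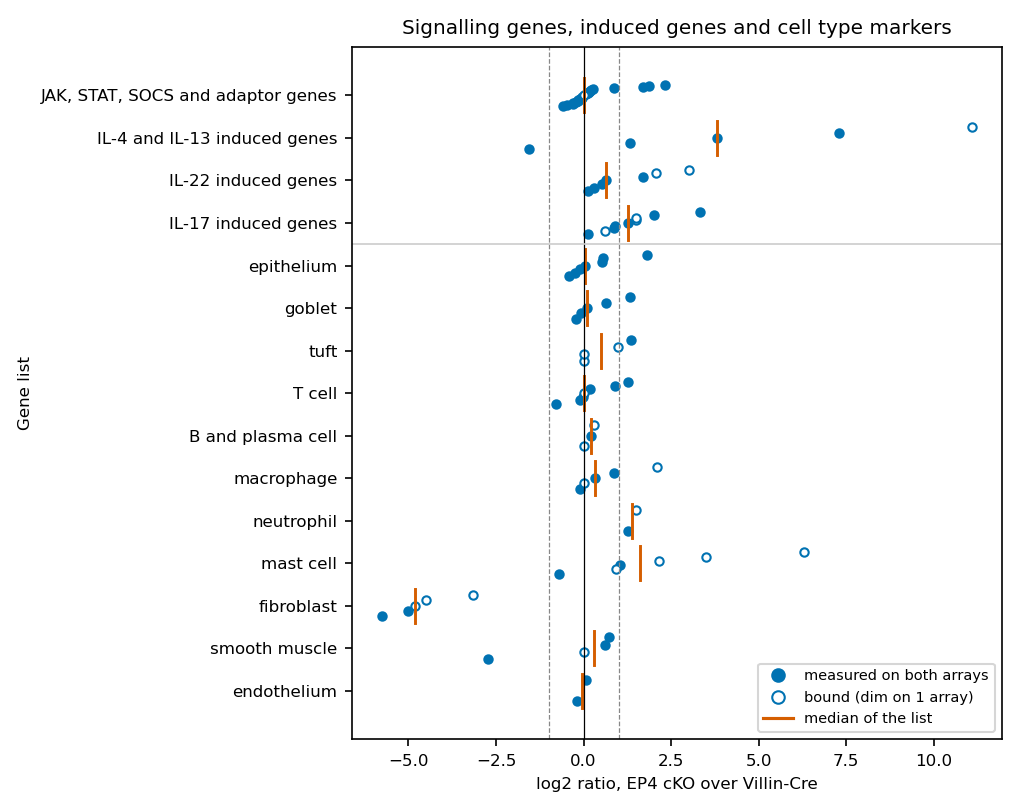
Log2 ratio of EP4 cKO over Villin-Cre (x axis) for the genes with a value in each list of signalling genes, cytokine-induced genes (above the grey line) and cell type markers (below it), open where the gene was dim on 1 array, with an orange bar at each list's median. The fibroblast genes, median -4.81, lie on the lower side and 4 of 5 IL-4 and IL-13 induced genes on the higher side.

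Because Stat2, of the signalling list, was more than 2-fold higher, the RefSeq promoters of the 11 genes past 2-fold were searched on both strands. The motifs were the STAT dimer site TTCNNNGAA, called GAS, the wider STAT6 site TTCNNNNGAA, and the interferon element ISRE. The ISRE was read as GAAA, any 2 bases and GAAA. The 250 bases before each start site in the mouse build GRCm38.p6 were used. A window was found for 8 of the 11 genes, with 10 windows in all, and Il2rb, Il24 and Il1f6 were without one. A match lay in 2 windows, a GAS in Il31ra, its first base at position -191 counted back from the start, and a STAT6 site in 1 of the 2 windows of Il33, at position -36. Across 32851 promoter windows, 7.02% held a GAS, 5.85% a STAT6 site and 2.98% an ISRE. A match is a stretch of letters and not a bound site. The windows of Il18bp and Lifr, each far apart between the arrays on its 2 brightest probes, and of the 2 genes with a match are given in the sense of the gene, with matches in capitals. They lie at chr7:102018233-102018482 on the minus strand for Il18bp, chr15:7129322-7129571 on the plus strand for Lifr, chr13:112580663-112580912 on the minus strand for Il31ra and chr19:29924863-29925112 on the plus strand for Il33.
Il18bp: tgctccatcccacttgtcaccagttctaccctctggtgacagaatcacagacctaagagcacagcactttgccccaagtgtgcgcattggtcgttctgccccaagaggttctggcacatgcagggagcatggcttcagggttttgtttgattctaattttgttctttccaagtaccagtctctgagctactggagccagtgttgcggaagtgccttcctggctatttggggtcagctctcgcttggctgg
Lifr: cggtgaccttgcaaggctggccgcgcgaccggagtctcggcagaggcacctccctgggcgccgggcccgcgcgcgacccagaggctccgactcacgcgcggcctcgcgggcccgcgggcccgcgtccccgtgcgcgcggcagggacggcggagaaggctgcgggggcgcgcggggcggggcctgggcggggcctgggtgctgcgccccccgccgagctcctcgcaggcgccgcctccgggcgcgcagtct
Il31ra: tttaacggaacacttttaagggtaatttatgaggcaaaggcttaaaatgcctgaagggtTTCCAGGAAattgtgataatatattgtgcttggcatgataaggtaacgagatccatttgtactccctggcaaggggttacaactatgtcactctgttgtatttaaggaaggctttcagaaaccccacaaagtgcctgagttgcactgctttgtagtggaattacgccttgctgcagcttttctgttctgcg
Il33: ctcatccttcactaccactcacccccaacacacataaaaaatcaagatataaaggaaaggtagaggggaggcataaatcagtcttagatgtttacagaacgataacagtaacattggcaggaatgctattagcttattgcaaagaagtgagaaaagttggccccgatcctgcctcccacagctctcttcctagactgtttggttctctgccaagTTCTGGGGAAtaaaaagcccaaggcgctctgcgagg

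No motif searched lay in the windows of Il18bp and Lifr, and the printed Lifr window had a GC content of 82.4%, the other window of that gene 50.8%, and the windows shown above 52.4% for Il18bp, 42% for Il31ra and 45.2% for Il33.

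The 11 ratios past 2-fold depended unequally on the scaling of the arrays. Il18bp, Il4ra and Crlf2 stayed more than 2-fold higher, and Lifr, Il1f6, Il33 and Il17rd more than 2-fold lower, when the arrays were scaled to their 75th percentile, by quantiles after background correction, by loess or to the E1A control spots. The sizes of the lower genes moved: with background correction and quantiles the log2 ratio of Il33 was -1.11, of Il17rd -1.17, of Il1f6 -1.49 and of Lifr -2.34, and with the control spots it was -1.31, -1.19, -2.26 and -3.23. The bounds also depended on the floor, since with the control floor of 125 used for both arrays the bound was -3.15 for Lifr and -2.18 for Il1f6 on the log2 scale. Il24 and Il4i1 came within 2-fold under each of these scalings. The first 3 of them moved the median of all genes by 0.09 to 0.10, and the control spots by 0.97. With the control spots, EP4 cKO was more than 2-fold higher for 25 of the 51 genes and lower for 4, or 86.2% of calls higher, against 45.5% as reported and 60% with the 75th percentile or loess, so the log2 ratios below 0 of genes measured within 2-fold become positive under that scaling. Under it 39.3% of all genes were more than 2-fold higher.

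**Figure D5:**
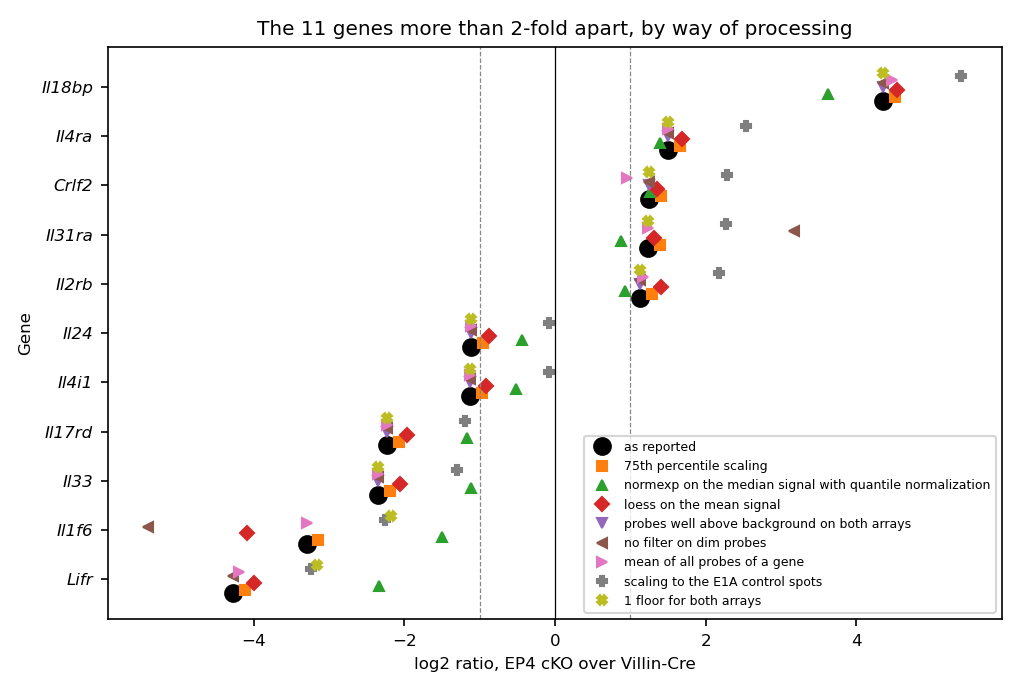
Log2 ratio of EP4 cKO over Villin-Cre (x axis) for the 11 genes more than 2-fold apart, 1 marker for each way of processing, with the reported value as a large black circle and dashed lines at 2-fold. Il18bp, Il4ra, Lifr, Il1f6, Il33 and Il17rd stay beyond the lines wherever they have a value, and Il24 and Il4i1 come within them under other scalings.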

How the data were processed

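Total RNA of colon, combined from 3 pools per genotype, was amplified, labelled with Cy3 and hybridised to 2 Agilent 8 x 60K mouse arrays, 1 per genotype. The deposited files hold scanner intensity values per spot from Agilent Feature Extraction (12.0.3.1 per the file headers, 11.5.1.1 per the submitters' processing notes), with its processed intensity, error estimate and detection flags. Each array holds 59305 gene spots, none saturated, and 25683 probes were well above background on Villin-Cre and 29177 on EP4 cKO, so dim genes are measured less precisely in the control.

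As in the methods, each array was brought to a trimmed mean processed intensity of 2500 (2% removed at each end), by a factor of 3.45 in Villin-Cre and 2.68 in EP4 cKO. Spots flagged as outliers were left out and spots of 1 probe averaged, which left 56593 probes, of which 58.3% matched a RefSeq gene by accession. Probes had to be well above background on either array. Log2 ratios were computed in Python 3.11.15 with pandas 2.3.3, and the code was checked on simulated data. No test was made with 1 array per genotype, and 2-fold is a size and not a significance threshold. Every gene with a value was named, or counted. Of the other lists only some genes were named, and these did not always have the largest ratios. Members and lists were chosen with earlier results of these data known. Il1b, Il18, Il25 and Il10rb, and 1 gene of the signalling list, are not reported here. Alternatives were the 75th percentile, normexp on the median signal (offset 50, limma 3.58.1) with quantile normalization, loess (span 0.3), other filters, the mean of all probes, and 3-fold and 1.5-fold thresholds. After the values had been seen, scaling to 252 E1A control spots and a shared floor were tried too.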

Additional observations from a re-analysis of the deposited data

How the results depend on the processing

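The 5 higher and 6 lower genes, with a median log2 ratio of 0.00, changed as follows. The median was 0.11 with the 75th percentile (6 higher, 4 lower) and 0.19 with normexp and quantile normalization (3 higher, 4 lower), where Il2rb at 0.93 and Il31ra at 0.88 no longer passed 2-fold, and Il18bp was 3.62. With probes measured on both arrays it was -0.30, with Lifr, Il1f6 and Il31ra left without a value. Without a filter 15 genes were higher and 29 lower, with a median of -0.45, but probes detected on neither array had a median log2 ratio of -1.13 over all 26467 of them. A 3-fold threshold left 1 higher and 4 lower genes, and 1.5-fold gave 12 and 14. Scaling to the E1A control spots, chosen after seeing the data, gave 25 higher genes and a median of 0.99. With the mean of all probes Crlf2 no longer passed 2-fold, at 0.96. A shared floor, also added later, changed no count but moved the Lifr bound to -3.15 and the Il1f6 bound to -2.18. Il24 ranged from -1.11 to -0.08 and Il4i1 from -1.12 to -0.08. No gene past 2-fold changed sign under any alternative run, and the cause of each move was not tested. No paired analysis was possible because each genotype has 1 array, and no array could be left out for the same reason. The higher detection limit of the control array limits bounds on genes detected on EP4 cKO only.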
